A study of Mus musculus with 21 samples.

Results

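The genes described here encode subunits, activators, inhibitors and assembly chaperones of the proteasome, measured by RNA sequencing in mouse bone marrow-derived macrophages. They were chosen by a rule on gene names, set with earlier results of these data known. It takes every gene of the count table whose symbol begins with Psm, followed by a letter from a to g and a digit. Names with the suffixes -ps or -rs, which mark pseudogenes and related sequences, are left out. The pattern matched 54 of 47069 genes, 4 names with -ps were left out, and 50 genes remained. Of these, Psmb8, Psmb9, Psmb10, Psme1 and Psme2 are described apart from the other 45. Of the 50, 49 passed the filter on low counts and were tested. Psmb11, the catalytic subunit of the thymus-specific proteasome, had 0 counts in all 21 libraries. The name rule also takes in Psmc3ip, a meiotic recombination factor that is not a proteasome subunit, and Psme2b, a Psme2-like gene.

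The proteasome is the main protease for ubiquitin-tagged proteins in the cytosol and nucleus. Its barrel-shaped core is built of outer alpha rings and inner beta rings. The beta rings carry the catalytic sites, and a regulatory particle of ATPase and non-ATPase subunits caps the barrel, unfolds substrates and feeds them in. Interferon-gamma can replace the constitutive catalytic subunits Psmb5, Psmb6 and Psmb7 with Psmb8, Psmb9 and Psmb10 to give the immunoproteasome, and it raises the activator PA28, made of Psme1 and Psme2. Macrophages use these forms to cut peptides for MHC class I.

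All cells came from mice of the C57BL/6 background. The marrow grew for 5 days in M-CSF-conditioned medium, M-CSF being the growth factor of macrophages, and a cytokine, where given, was present for 36 h. The 21 libraries form 7 groups of 3. Wild-type cells make up 3 groups, untreated, given IL-33 and given IL-4. Cells labelled ST2-/-, which by their label lack the receptor for IL-33, make up an untreated and an IL-33 group. Cells labelled Cx3cr1CRExGata3fl/fl also make up an untreated and an IL-33 group and are called Gata3-floxed below. Their Cre is driven by Cx3cr1, a gene of the monocyte and macrophage lineage, and is meant to delete the transcription factor gene Gata3. No group combined a mutant genotype with IL-4. The labels do not say whether the 3 libraries of a group came from separate animals or cultures, so p-values measure the spread between libraries, which may be technical.

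Libraries held 32626469 to 48743646 counted reads. The 8 macrophage markers, among them Adgre1, Csf1r and Lyz2, summed to 14070 to 40574 CPM (counts scaled to a common library size) and none was at 0 in any group. Neither deletion could be checked from counts per gene: Il1rl1, which encodes ST2, had 523 to 989 counts in ST2-/- libraries and 518 to 686 in wild-type libraries without IL-4. Gata3 had at most 18 counts in any library. Each Gata3-floxed library expressed Xist, at 277 to 376 CPM, and held at most 1 count of the Y-linked Ddx3y, whereas the other libraries had 60.98 to 86.3 CPM of Ddx3y. Genotype and sex therefore cannot be told apart in comparisons of Gata3-floxed with wild-type cells.

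IL-33 raised most of the standard proteasome genes of wild-type cells by a small amount. Of 49 genes tested, 31 rose and 0 fell against no cytokine by edgeR's quasi-likelihood test at an adjusted p under 0.05, while 18.5% of all 14473 genes tested were called higher and 16.9% lower. The median log2 change was 0.21, against -0.00 over all genes. No rise reached 1.5-fold. In 37 of the 49 genes all 3 IL-33 libraries lay above all 3 untreated ones, as they did in 24.1% of all genes. The count rests in part on single libraries: it was 18 without wild-type IL-33 replicate 1 and 20 without wild-type no-cytokine replicate 3. With IL-4, 37 of 49 rose and 0 fell, with 25.1% of all genes called higher and 22.5% lower, and the median log2 change was 0.30. The IL-4 libraries lay above all untreated ones in 39 of the 49, against 29.3% of all genes. The 7 genes that rose at least 1.5-fold with IL-4 were Psmc3ip, Psmb10, Psma4, Psmb6, Psma7, Psmb5 and Psmd14.

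**Figure D1:**
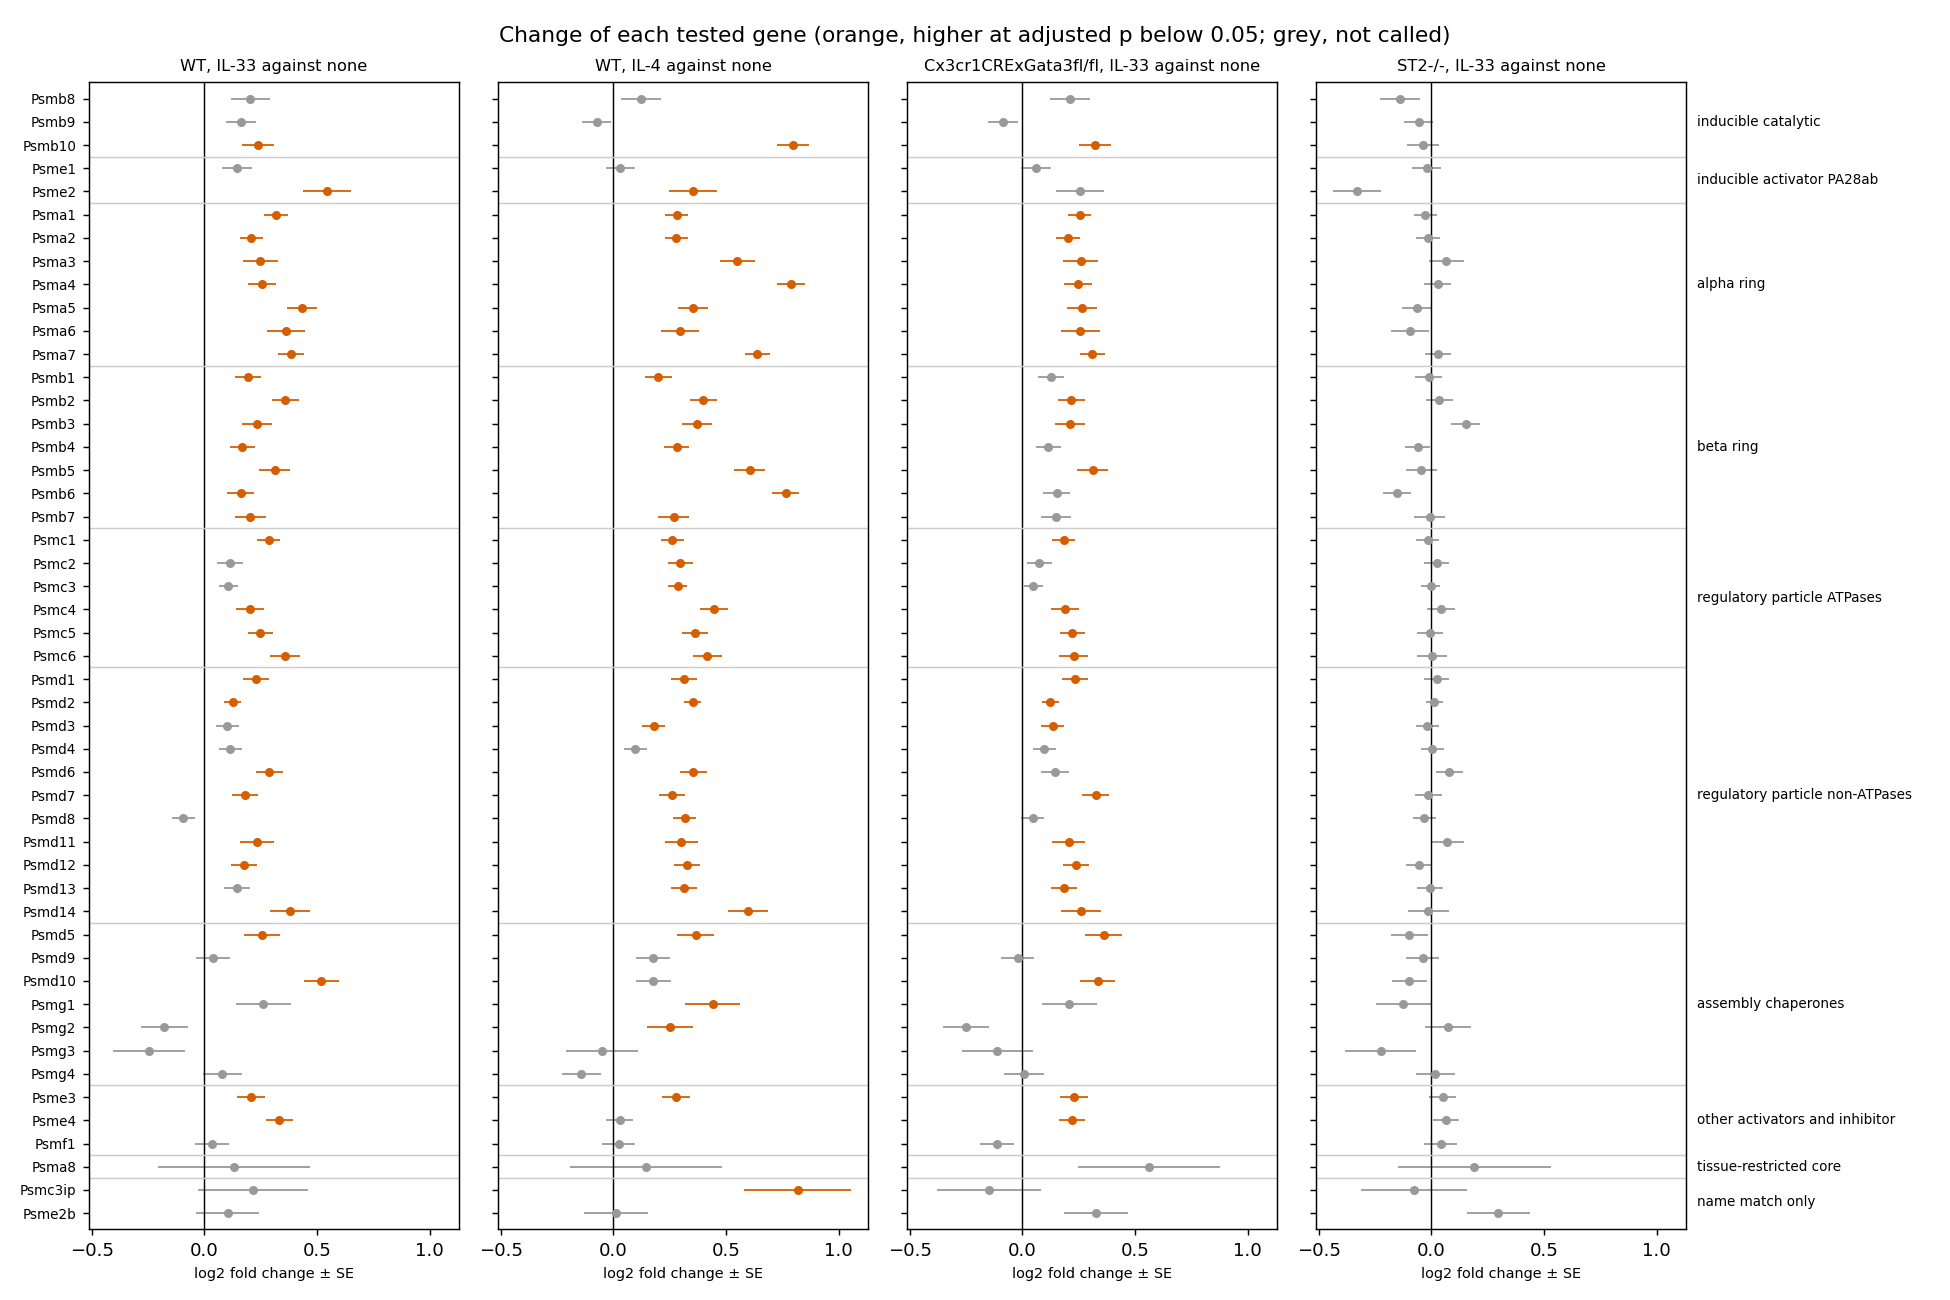
Log2 fold change with its standard error (x axis) for each of the 49 tested genes (y axis, by class), for IL-33 or IL-4 against no cytokine in the genotypes named above each panel. Orange points were called higher, 31, 37, 27 and 0 from left to right, and grey points were not called.

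Of the 5 interferon-inducible genes, Psmb10 and Psme2 rose with both cytokines, and Psmb8, Psmb9 and Psme1 passed the test with neither. With IL-33 all 5 log2 changes were above 0, from 0.15 to 0.54. The calls of Psmb8, Psmb9 and Psme1 depended on the setting, as given with each gene. These genes were also called in a fit of all libraries with a replicate block, given in the closing section on processing. With IL-4 the 5 changes ran from -0.07 to 0.80.

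Psmb10 encodes the inducible subunit with trypsin-like activity and lies at chr8:105935735-105938444 (all gene positions are GRCm38, GENCODE M21). Its levels were 118, 111 and 112 CPM in untreated cells, 139, 138 and 125 CPM with IL-33, and 206, 173 and 213 CPM with IL-4. All 6 cytokine-treated wild-type libraries lay above the 3 untreated ones, and the IL-4 libraries lay above the IL-33 libraries. The log2 change was 0.24 ± 0.07 (SE) with IL-33 (edgeR adjusted p = 0.0111) and 0.80 ± 0.07 with IL-4 (adjusted p = 3.39e-09). The IL-33 call was lost when any of wild-type IL-33 replicates 1 and 2 or no-cytokine replicates 2 and 3 was left out, with adjusted p values of 0.0502 to 0.0606. The IL-4 level also exceeded the IL-33 level when the 2 were compared directly, by a log2 difference (IL-33 minus IL-4) of -0.56 ± 0.07 (adjusted p = 8.93e-07).

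Psme2 encodes the beta subunit of PA28 and lies at chr14:55587441-55591113. Its levels were 73.2, 63.0 and 61.8 CPM in untreated cells, 99.4, 93.7 and 95.4 CPM with IL-33, and 69.6, 85.8 and 97.0 CPM with IL-4. The IL-33 libraries lay above all untreated ones, whereas the lowest IL-4 library overlapped them. The log2 change was 0.54 ± 0.11 with IL-33 (edgeR adjusted p = 0.000293), the largest called rise of the 49 genes in that comparison, and 0.35 ± 0.11 with IL-4 (adjusted p = 0.00854). The IL-4 call was lost without IL-4 replicate 3 (log2 change 0.24) and without no-cytokine replicates 2 (0.30) or 3 (0.29).

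The counts of Psme2 are uncertain, since 59.3% of the 50-base windows of its exons also occur in Psme2b, at chr11:48945354-48946190, or in Gm7928. Psme2b read 80.1, 55.2 and 55.7 CPM in the same IL-4 libraries, so that it was highest where Psme2 was lowest. In the Gata3-floxed libraries with IL-33, Psme2 read 65.9, 79.3 and 97.0 CPM and Psme2b 76.8, 58.6 and 58.7 CPM. When the counts of the copies were merged, a step chosen after these values were seen (Gm7928 had 0 counts throughout), wild-type cells had 129 ± 3.11 CPM (SD, n = 3) untreated, 164 ± 6.72 with IL-33 and 148 ± 6.06 with IL-4. Merged libraries given IL-4 did not overlap the untreated ones. The merged log2 change was 0.34 ± 0.06 with IL-33 (edgeR adjusted p = 0.000176) and 0.20 ± 0.06 with IL-4 (adjusted p = 0.0148).

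Psmb8 encodes the inducible subunit with chymotrypsin-like activity and lies at chr17:34197721-34201454, within the MHC. Its levels were 91.2, 84.8 and 87.5 CPM in untreated cells, 109, 100.1 and 94.6 CPM with IL-33, and 95.6, 86.0 and 105 CPM with IL-4. The IL-33 libraries lay just above the untreated ones and the IL-4 libraries overlapped them. The log2 change was 0.20 ± 0.09 with IL-33 (edgeR adjusted p = 0.0778) and 0.12 ± 0.09 with IL-4 (adjusted p = 0.276). The IL-33 change passed the threshold with no expression filter (adjusted p = 0.00898) and with only the 2 groups in the fit (0.0229).

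Psmb9 replaces the caspase-like subunit Psmb6 and lies at chr17:34181987-34187764, head to head with the peptide transporter gene Tap1. Its levels were 73.8, 71.0 and 68.6 CPM in untreated cells, 84.6, 80.7 and 73.4 CPM with IL-33, and 70.8, 65.7 and 66.1 CPM with IL-4. Both sets of treated libraries overlapped the untreated ones. The log2 change was 0.16 ± 0.07 with IL-33 (edgeR adjusted p = 0.0579) and -0.07 ± 0.07 with IL-4 (adjusted p = 0.376). Compared directly, Psmb9 was higher with IL-33 than with IL-4, by 0.24 ± 0.07 (adjusted p = 0.00571), with no overlap of libraries. Without wild-type IL-33 replicate 3 the rise with IL-33 passed the threshold (log2 change 0.21, adjusted p = 0.0264).

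Psme1 encodes the alpha subunit of PA28 and lies at chr14:55578123-55581529. Its levels were 141, 134 and 139 CPM in untreated cells, 168, 152 and 138 CPM with IL-33, and 145, 129 and 149.5 CPM with IL-4, and the 3 groups overlapped. The log2 change was 0.15 ± 0.07 with IL-33 (edgeR adjusted p = 0.0945) and 0.03 ± 0.07 with IL-4 (adjusted p = 0.732). Without wild-type IL-33 replicate 3 the IL-33 change was 0.20 and passed the threshold (adjusted p = 0.0261). Reads on the opposite strand cannot be told apart here, since strandedness was not given in the sources used here: 14.7% of the exon bases of Psmb8 overlap Gm20496, and 5.79% of those of Psmb9 overlap Tap1.

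**Figure D2:**
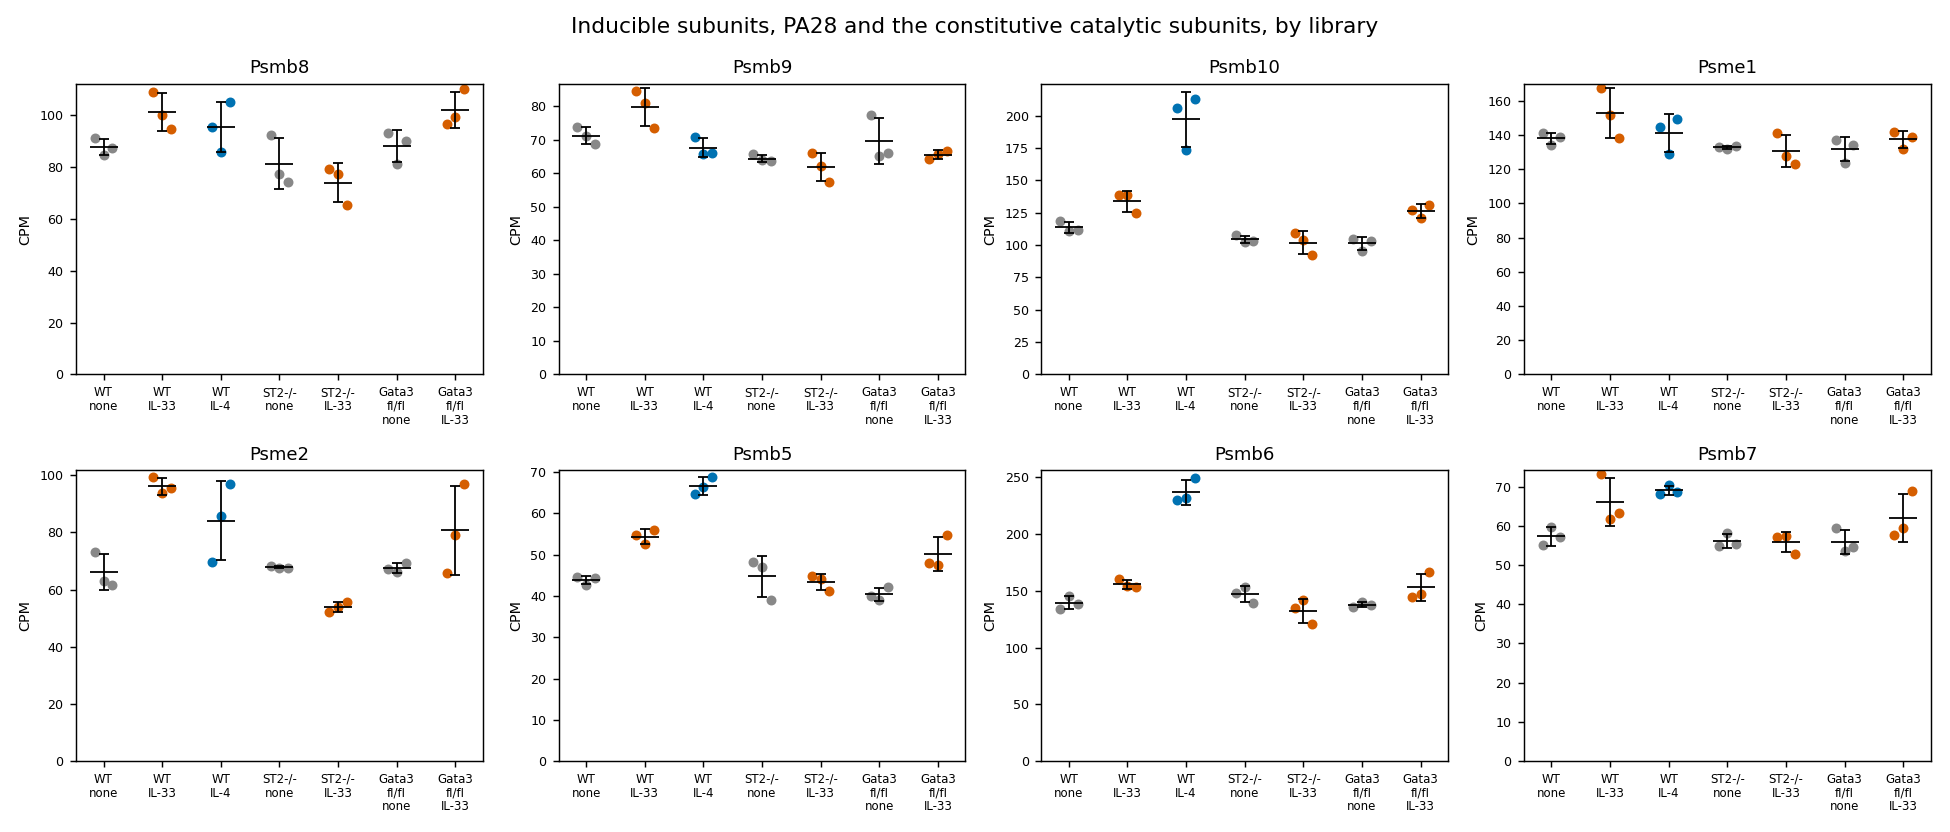
Level in CPM (y axis) of the 5 inducible genes and of Psmb5, Psmb6 and Psmb7 in each library (points) of the 7 groups (x axis), with the mean and SD of 3 libraries. Psmb10, Psmb5 and Psmb6 were highest in the wild-type IL-4 group, and Psme2 had its highest mean in the wild-type IL-33 group.

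The start-site sequences of these genes are given because interferon-driven induction acts through short promoter elements. Each stretch is RefSeq sequence of GRCm38.p6, from 100 bases before the annotated start site to 30 bases from it, 5′ to 3′. Capitals mark matches to GAAANNGAA (interferon-response type), TTCNNNGAA (gamma-activated-site type) or TGACNNNGC (antioxidant-response type), each searched on both strands.
Psmb8, chr17:34198095-34198224, plus strand: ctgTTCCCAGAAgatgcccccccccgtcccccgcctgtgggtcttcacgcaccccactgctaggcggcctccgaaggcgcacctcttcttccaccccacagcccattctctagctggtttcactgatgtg
Psmb9, chr17:34187301-34187430, minus strand: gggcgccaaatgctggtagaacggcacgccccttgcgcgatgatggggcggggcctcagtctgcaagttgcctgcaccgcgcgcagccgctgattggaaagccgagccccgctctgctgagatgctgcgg
Psmb10, chr8:105938363-105938492, minus strand: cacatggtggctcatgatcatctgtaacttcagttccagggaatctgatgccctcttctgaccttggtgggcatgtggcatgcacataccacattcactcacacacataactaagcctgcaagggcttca
Psme1, chr14:55578394-55578523, plus strand: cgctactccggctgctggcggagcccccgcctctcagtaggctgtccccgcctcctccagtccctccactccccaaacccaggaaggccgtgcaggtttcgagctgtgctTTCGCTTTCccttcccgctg
Psme2, chr14:55591072-55591201, minus strand: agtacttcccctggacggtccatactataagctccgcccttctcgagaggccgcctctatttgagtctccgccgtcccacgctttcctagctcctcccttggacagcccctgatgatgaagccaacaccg
Psmb5, chr14:54617966-54618095, minus strand: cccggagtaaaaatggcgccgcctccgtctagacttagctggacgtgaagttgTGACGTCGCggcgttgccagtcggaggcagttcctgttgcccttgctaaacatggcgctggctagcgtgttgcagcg
Psmb6, chr11:70525257-70525386, plus strand: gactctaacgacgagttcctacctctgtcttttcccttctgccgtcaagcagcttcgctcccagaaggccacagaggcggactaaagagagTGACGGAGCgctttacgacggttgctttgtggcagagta
Psmb8 held a gamma-activated-site-type match and Psme1 an interferon-response-type match, while Psmb5 and Psmb6 each held an antioxidant-response-type match. None of these letters occurred in the stretches of Psmb9, Psmb10 and Psme2. The stretch of Psme2 is that of the farther upstream of its RefSeq start sites. Those of Psmb8, Psmb9 and Psme1 lie inside the GENCODE gene bounds given above. Bases before the GENCODE start of these genes are thus not shown. Over the full 300-base windows, 42 of the 50 genes had an entry. The interferon-response type occurred in 16.7% of those 42 genes and in 9.76% of all 27025 genes with an entry, the gamma-activated-site type in 7.14% and 9.55%, and the antioxidant-response type in 14.3% and 13.99%. These are letter matches and not measured binding.

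The constitutive catalytic subunits all rose with both cytokines, and Psmb5 and Psmb6 rose further with IL-4. Psmb5, the chymotrypsin-like subunit, lies at chr14:54614119-54618022 and read 44.5, 42.7 and 44.3 CPM in untreated cells, 54.8, 52.5 and 55.9 CPM with IL-33, and 64.8, 66.3 and 68.9 CPM with IL-4. The 3 groups did not overlap, and the log2 changes were 0.31 ± 0.07 (edgeR adjusted p = 0.00105) and 0.61 ± 0.07 (adjusted p = 1.51e-07). Its counts are uncertain in level, as 57.1% of its 50-base windows occur elsewhere, among others in Psmb5-ps. Psmb6, the caspase-like subunit at chr11:70525367-70527858, read 134, 146 and 139 CPM in untreated cells, 160, 154 and 153 CPM with IL-33, and 230, 232 and 250 CPM with IL-4. The IL-4 libraries stood well apart, with a log2 change of 0.76 ± 0.06 (adjusted p = 5.67e-10), while the IL-33 change of 0.16 ± 0.06 (adjusted p = 0.0438) lost its call without any 1 of 5 of the 6 libraries and with upper-quartile scaling. Psmb7, the trypsin-like subunit at chr2:38588036-38644087, read 55.04, 59.7 and 57.2 CPM in untreated cells, 73.1, 61.8 and 63.2 CPM with IL-33, and 68.0, 70.4 and 68.7 CPM with IL-4. Both treated groups lay above the untreated one. Its log2 change was 0.20 ± 0.07 with IL-33 (adjusted p = 0.0237), a call lost with upper-quartile scaling and without wild-type IL-33 replicate 1 or no-cytokine replicates 1 or 3, and 0.27 ± 0.07 with IL-4 (adjusted p = 0.00247).

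Levels of different genes were compared as CPM per kilobase of exon. The exon bases are all those annotated for a gene (899 for Psmb5, 3381 for Psmb8), not those of the transcript expressed. Which gene of a pair is higher is thus uncertain: in CPM alone, untreated Psmb8 lay above Psmb5. Changes of a ratio between groups do not depend on this length. Without cytokine, wild-type cells had 66.7 ± 2.43 CPM per kb of Psmb10 (SD, n = 3) and 16.8 ± 0.69 of its counterpart Psmb7, 26.0 ± 0.95 of Psmb8 and 48.8 ± 1.08 of Psmb5, and 19.4 ± 0.70 of Psmb9 and 74.5 ± 3.03 of Psmb6. The ratio of each pair shifted with IL-4. The ratio of Psmb9 to Psmb6 was 0.249 to 0.281 in untreated cells, 0.245 to 0.270 with IL-33 and 0.135 to 0.158 with IL-4. The ratio of Psmb8 to Psmb5 was 0.526 to 0.545, 0.450 to 0.529 and 0.345 to 0.406 in the same groups, and that of Psmb10 to Psmb7 was 3.72 to 4.32, 3.81 to 4.497 and 4.94 to 6.22. In each pair the IL-4 libraries lay outside the range of the untreated ones, lower for Psmb8 and Psmb9 and higher for Psmb10, and the IL-33 libraries overlapped it. The smallest p that an exact permutation test can give for 3 against 3 libraries is 0.1, and none is reported for these ratios.

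**Figure D3:**
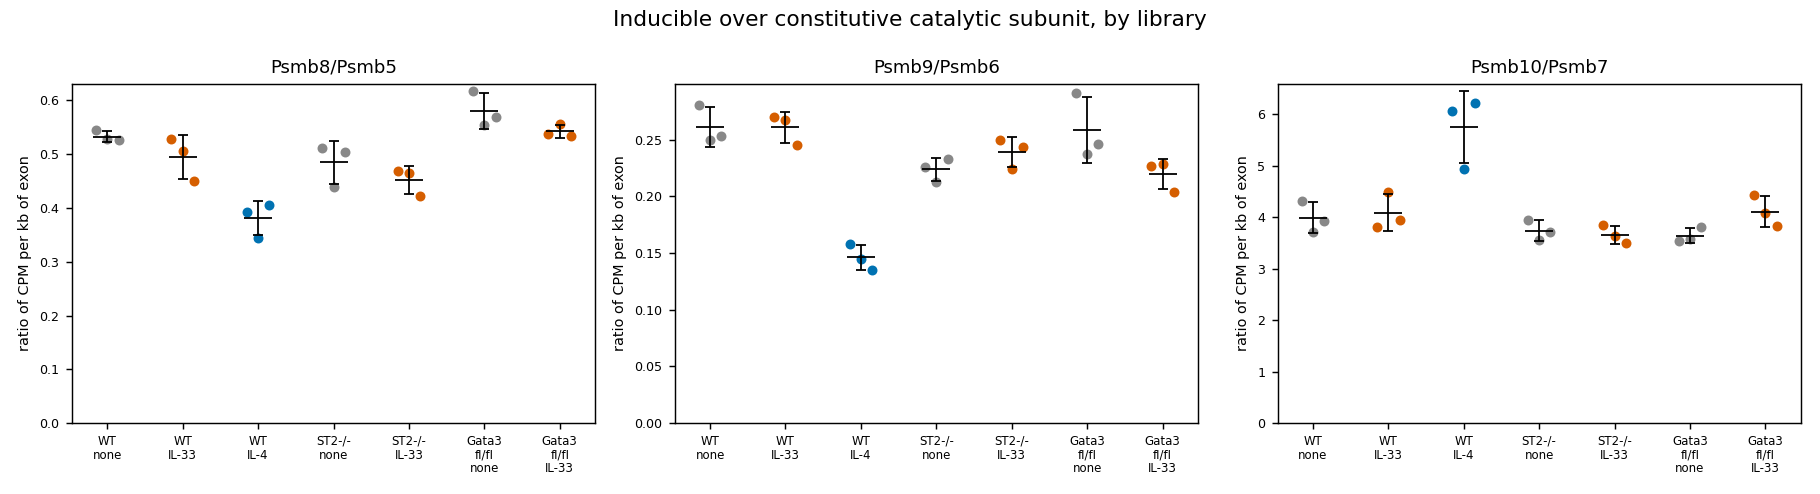
Ratio of inducible to constitutive catalytic subunit in CPM per kb of exon (y axis) in each library (points) of the 7 groups (x axis), with the mean and SD of 3 libraries. With IL-4 the ratio to Psmb6 or Psmb5 was lowest for Psmb9 and Psmb8, and the ratio of Psmb10 to Psmb7 was highest.

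The structural subunits of the core moved with both cytokines. All 7 alpha-ring genes and all 7 beta-ring genes rose with IL-33, with median log2 changes of 0.32 and 0.20, and all 14 rose with IL-4, with medians of 0.35 and 0.37. Of all genes tested, 18.5% were called higher with IL-33 and 25.1% with IL-4. In the alpha ring, which forms the gate of the barrel, the largest rise with IL-33 was that of Psma5, from 48.0, 55.5 and 51.8 CPM to 73.0, 67.2 and 69.8 CPM (log2 change 0.43 ± 0.07, edgeR adjusted p = 1.9e-05). The largest with IL-4 was that of Psma4, from 86.1, 86.3 and 85.2 CPM to 152, 139 and 153 CPM (0.79 ± 0.06, adjusted p = 4.27e-10). Neither pair of groups overlapped. Psma4 changed less with IL-33, by 0.25 ± 0.06, and the direct difference between the cytokines (IL-33 minus IL-4) was -0.53 ± 0.06 (adjusted p = 2.32e-07). Psma7, another alpha-ring subunit, rose by 0.38 with IL-33 and 0.64 with IL-4. Of the windows of Psma5 54.5% and of Psma4 25.6% occur in other loci, which makes their levels uncertain. The other alpha-ring genes, Psma1, Psma2, Psma3 and Psma6, rose by 0.21 to 0.36 with IL-33 and 0.28 to 0.55 with IL-4. In the beta ring the non-catalytic subunits Psmb1, Psmb2, Psmb3 and Psmb4 rose by 0.17 to 0.36 with IL-33 and 0.20 to 0.40 with IL-4, and Psmb2 led that set with both. Psma8, the alpha subunit of the testis, stayed at 0.582 to 1.25 CPM in the 9 wild-type libraries.

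In the regulatory particle, 4 of 6 ATPase genes and 7 of 11 non-ATPase genes rose with IL-33, against 18.5% of all genes. With IL-4, 6 of 6 and 10 of 11 rose, against 25.1% of all genes. Psmc6 rose most among the ATPases with IL-33, by 0.36 ± 0.07, and Psmc4 with IL-4, by 0.45 ± 0.06. Psmd14, the deubiquitinase that removes ubiquitin chains from substrates, rose from 47.1, 48.2 and 44.9 CPM to 68.1, 58.1 and 56.1 CPM with IL-33 and 74.1, 64.5 and 73.5 CPM with IL-4. All 6 treated libraries lay above the untreated ones, and the log2 changes were 0.38 ± 0.09 (edgeR adjusted p = 0.00182) and 0.60 ± 0.09 (adjusted p = 7.01e-06). Psmd8, a lid subunit and the highest of the 50 genes per kb, read 382, 360 and 366 CPM in untreated cells, 360, 344 and 334 CPM with IL-33 and 460, 444 and 476 CPM with IL-4. It rose with IL-4 (0.32 ± 0.05, adjusted p = 1.85e-05) and its change with IL-33 was -0.09 ± 0.05 (adjusted p = 0.167). With upper-quartile scaling the IL-33 change of Psmd8 was -0.14 and called (adjusted p = 0.035). Psmd2, a large scaffold subunit of the base, rose by 0.12 ± 0.04 and 0.35 ± 0.04, with 26.1% of its windows shared with other loci. With IL-33 the subunits not called were Psmc2, Psmc3, Psmd3, Psmd4, Psmd8 and Psmd13, whose changes ran from -0.09 to 0.15. Psmd4, a ubiquitin receptor, passed the test with neither cytokine, at 0.12 ± 0.05 and 0.10 ± 0.05.

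Summed over the 31 core and regulatory genes, wild-type libraries read 2894 ± 31.2 CPM without cytokine (SD, n = 3), 3298 ± 141 with IL-33 and 3745 ± 88.0 with IL-4, which are 1.14 and 1.29 times the untreated mean. The lowest IL-33 library, at 3197 CPM, lay above the highest untreated library, at 2927 CPM, and below the lowest IL-4 library, at 3643 CPM. Of the 31 genes, 24 had their highest group mean with IL-4 and 5 with IL-33 in wild-type cells. In bulk libraries, fewer or more cells of a type and less or more RNA per cell cannot be told apart. With IL-4 the summed macrophage markers were 14070 to 15632 CPM, against 27775 to 30681 CPM in untreated cells, with 6 of 8 called lower and 2 higher. T and NK cell markers were 2.75 to 3.46 CPM against 22.1 to 25.7, with 2 of 4 tested called lower. With IL-33 the macrophage markers summed to 36681 to 40574 CPM, with 4 of 8 called higher and 2 lower. Neutrophil markers summed to 197 to 278 CPM with IL-33 against 33.2 to 38.8 in untreated cells, with 6 of 9 tested markers called higher, while Ly6g had 0 counts in the untreated group. Mast cell and basophil markers summed to 0.844 to 1.82 CPM with IL-33, with 2 of 3 tested called higher. The part of these markers in the proteasome changes was not tested.

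**Figure D4:**
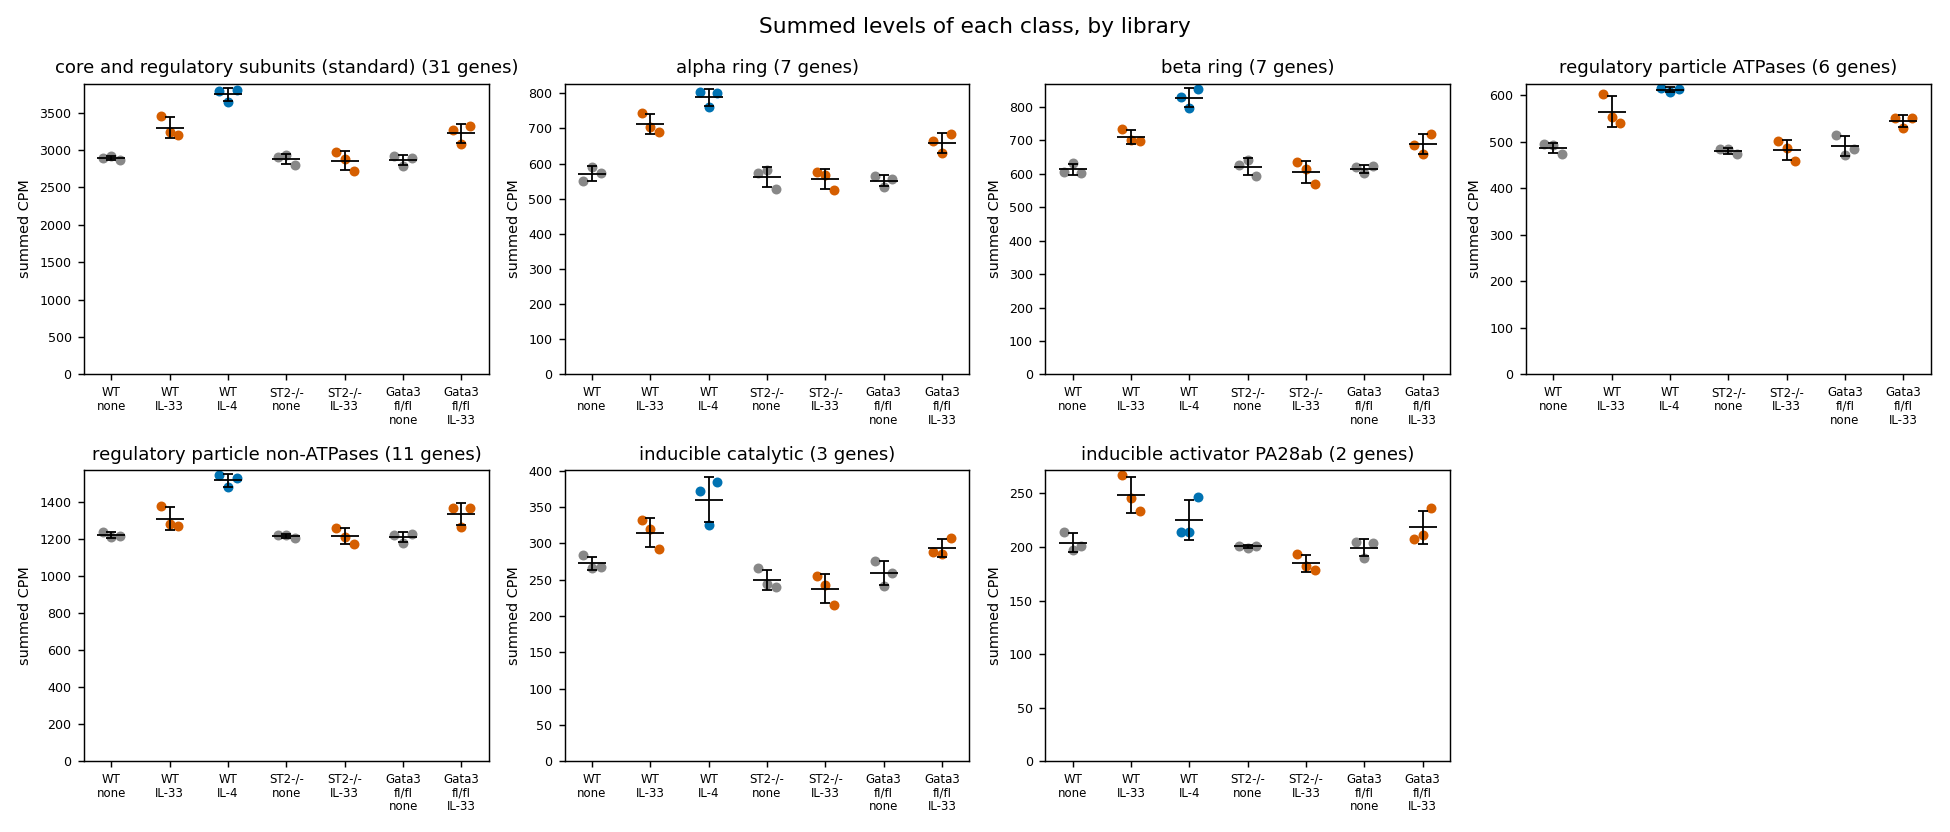
Summed CPM (y axis) of the 31 core and regulatory genes, of each of their 4 classes, and of the 2 inducible classes in each library (points) of the 7 groups (x axis), with the mean and SD of 3 libraries. In every panel of standard subunits the wild-type IL-4 libraries were highest, and ST2-/- libraries with IL-33 overlapped those without. In the PA28 panel those ST2-/- libraries, at 179 to 193 CPM, lay below the untreated ones, at 199 to 201 CPM, but with Psme2 and Psme2b counts merged Psme2 itself overlapped, at 110 to 132 against 122 to 130 CPM.

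Of the 7 assembly chaperones, 2 rose with IL-33 and 3 with IL-4, where 18.5% and 25.1% of all genes were called higher. Psmd10 (gankyrin), a chaperone of the regulatory particle and also an oncoprotein, read 29.5, 30.1 and 30.8 CPM in untreated cells, 43.8, 41.8 and 43.9 CPM with IL-33 and 33.03, 32.9 and 36.3 CPM with IL-4. The IL-33 libraries stood above all others, with a log2 change of 0.52 ± 0.08 (edgeR adjusted p = 1.46e-05) against 0.18 ± 0.08 with IL-4 (adjusted p = 0.0694) and a direct difference of 0.34 ± 0.08 (adjusted p = 0.00114). Psmd5, which helps to build the ATPase base, rose with both, by 0.26 and 0.37. Among the chaperones of the core, Psmg1 rose with IL-4 by 0.44 ± 0.12 and had a change of 0.26 ± 0.12 with IL-33 that was not called. Psmg2, its partner, had -0.18 ± 0.10 with IL-33 and rose by 0.25 ± 0.10 with IL-4 (adjusted p = 0.0481). Psmg3, Psmg4 and Psmd9 passed the test with neither cytokine.

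Among the other activators, Psme3 (PA28 gamma, a nuclear activator) rose with both cytokines, by 0.21 and 0.28. Psme4 (PA200, an activator linked to histone degradation) read 96.6, 93.5 and 95.7 CPM in untreated cells, 111, 125 and 124 CPM with IL-33 and 90.7, 104 and 96.6 CPM with IL-4. It rose with IL-33 only among the called changes, by 0.33 ± 0.06 (edgeR adjusted p = 0.000112), and the direct difference between the cytokines was 0.30 ± 0.06 (adjusted p = 0.000234). The inhibitor Psmf1 (PI31) had log2 changes of 0.03 and 0.02. Psmc3ip rose with IL-4 from 1.07, 1.14 and 1.65 CPM to 2.75, 2.15 and 1.95 CPM (0.82 ± 0.24, adjusted p = 0.00681), at levels far below those of the subunits and with 21.2% of its exon bases overlapping Mlx on the other strand.

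Compared directly, 4 of the 49 genes were higher and 15 lower with IL-33 than with IL-4, against 19.2% and 20.7% of all genes. The 4 higher were the regulatory-particle chaperone Psmd10, the activator Psme4, the inducible catalytic subunit Psmb9 and the core chaperone Psmg4. Psmg4 was higher by 0.22 ± 0.09 (edgeR adjusted p = 0.0445), a call lost without any 1 of the 3 IL-33 libraries or IL-4 replicate 1, and with upper-quartile scaling or no filter. Psmb6 had the largest called difference the other way, at -0.60 ± 0.06 (adjusted p = 3e-08), with no overlap of libraries. Psmc3ip was lower by a similar -0.60 ± 0.24 (adjusted p = 0.0464), but lost its call by limma-voom (0.0505) and without IL-33 replicates 2 or 3 or IL-4 replicates 1 or 2. The other 13 lower genes included the inducible Psmb10, the alpha-ring genes Psma3, Psma4 and Psma7, Psmb5, and the lid subunit Psmd8, at -0.41 ± 0.05.

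In ST2-/- cells, IL-33 changed none of the 49 genes by edgeR's quasi-likelihood test, and 0 of all 14473 genes (0%) were called in either direction. At an unadjusted p under 0.05, 4 of the 49 and 507 of all genes passed, and DESeq2 also called 0 of the 49. The summed core and regulatory genes read 2879 ± 69.6 CPM without cytokine (SD, n = 3) and 2859 ± 125 with IL-33. Psme2 read 68.3, 67.6 and 67.7 CPM without cytokine and 52.2, 54.1 and 55.6 CPM with IL-33, with no overlap and a log2 change of -0.33 ± 0.11 (adjusted p = 1). With no expression filter that change was -0.34 and called (adjusted p = 0.000226). Psme2b had a called change of 0.29 in the opposite direction in that fit, and with the counts merged the change was -0.01 ± 0.06. The other 4 inducible genes had log2 changes of -0.14 to -0.02.

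The difference in IL-33 response between ST2-/- and wild-type cells was tested as an interaction. For 18 of the 49 genes the response was smaller in ST2-/- cells and for 0 it was larger, against 12.1% and 10.6% of all genes, with a median difference of -0.21 (all genes, 0.00). The 18 included 5 of 7 alpha-ring genes, 4 of 7 beta-ring genes, 3 of 6 ATPases and 2 of 11 non-ATPases. The largest differences (ST2-/- response minus wild-type response) were those of Psme2, at -0.87 ± 0.15 (edgeR adjusted p = 0.000144), Psmd10, at -0.62 ± 0.11 (adjusted p = 0.000237), and Psma5, at -0.50 ± 0.09 (adjusted p = 0.000432). For Psme2 the value with merged counts was -0.35 ± 0.09 (adjusted p = 0.00608). Of the 3 inducible catalytic genes none passed this test in the fit of all libraries, with differences of -0.34 for Psmb8 (adjusted p = 0.0527), -0.27 for Psmb10 (0.0526) and -0.22 for Psmb9 (0.0949). These calls depended on the setting. Psmb8 was called with no filter (adjusted p = 0.00147), by DESeq2 (0.0364) and without any 1 of 4 libraries (wild-type IL-33 replicate 3, ST2-/- untreated replicate 3, ST2-/- IL-33 replicates 1 or 2), and Psmb10 with no filter (0.0137), by DESeq2 (0.0406), with only the groups compared (0.0456) and without wild-type IL-33 replicate 3 or ST2-/- IL-33 replicate 1. Psmb9 was called without wild-type IL-33 replicate 3 (-0.27, adjusted p = 0.0488). The neutrophil markers, which rose with IL-33 in wild-type cells, summed to 33.5 to 45.0 CPM in ST2-/- cells with IL-33 and 37.5 to 46.2 CPM without, and their part in the difference was not tested.

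In Gata3-floxed cells, IL-33 raised 27 of the 49 genes and lowered 0, against 17.1% and 16.3% of all genes, with a median log2 change of 0.21. In 30 of the 49 the IL-33 libraries lay above all untreated ones, against 22.3% of all genes. All 7 alpha-ring genes rose, with 3 of 7 beta-ring genes, 4 of 6 ATPases and 8 of 11 non-ATPases. Psmb10 was the only inducible gene called in the fit of all libraries, rising from 105, 95.5 and 103 CPM to 127, 121 and 131 CPM (0.32 ± 0.07, edgeR adjusted p = 0.0011) with no overlap. Psmb8 had a log2 change of 0.21 ± 0.09 (adjusted p = 0.0695), Psmb9 -0.09 ± 0.07 (0.342) and Psme1 0.06 ± 0.07 (0.518). Psmb8 was called with no filter (adjusted p = 0.00914), with only the groups compared (0.0195) and by DESeq2 (0.0459). Psme2 had 0.26 ± 0.11 (adjusted p = 0.0676), which passed the threshold with merged counts (0.29 ± 0.06, adjusted p = 0.00125) and without Gata3-floxed IL-33 replicate 1 (0.38, adjusted p = 0.00575). Unmerged, Psme2 was also called with no filter (0.25, adjusted p = 0.00129) and by DESeq2 (0.26, adjusted p = 0.0421). Psmb5 rose by 0.31 ± 0.07, while Psmb6 and Psmb7, at 0.15 each, were not called in the fit of all libraries. Psmb6 was called by DESeq2, with RLE scaling and without Gata3-floxed IL-33 replicate 1 or 2, and Psmb7 without Gata3-floxed no-cytokine replicate 1. The largest called rises were those of Psmd5 (0.36 ± 0.08), Psmd10 (0.33 ± 0.08) and Psmd7 (0.33 ± 0.06). Neutrophil markers summed to 297 to 348 CPM with IL-33 against 62.8 to 69.1 without.

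No gene of the 49 differed between the Gata3-floxed and wild-type responses to IL-33 (edgeR, 0 called, with 0.539% of all genes called larger and 0.677% smaller, and 0 by DESeq2). At an unadjusted p under 0.05, 1 of the 49 and 1973 of all 14473 genes passed. The 1 gene of the 49 was Psmb9, with a difference of -0.25 (adjusted p = 0.221). Without cytokine, 0 of the 49 differed between ST2-/- and wild-type cells (0.871% of all genes higher and 0.484% lower), and 0 by DESeq2. At an unadjusted p under 0.05, 3 of the 49 and 2137 of all 14473 genes passed there. Psmc3ip alone differed between untreated Gata3-floxed and untreated wild-type cells (5.6% of all genes higher and 4.25% lower), at 2.51, 1.91 and 2.10 CPM against 1.07, 1.14 and 1.65 CPM. Its log2 difference was 0.75 ± 0.24 (adjusted p = 0.0471), and the call was lost on leaving out any 1 library other than wild-type replicate 3. The call was also lost with no filter and with only the groups compared. In both of those edgeR fits Psme2b was called lower instead, at -0.29 (adjusted p = 0.000828 and 0.0491). With IL-33, 1 gene was higher and 2 lower in Gata3-floxed than in wild-type cells (5.5% and 5.85% of all genes). Psmb9 was lower, at 64.1, 65.8 and 66.6 CPM against 84.6, 80.7 and 73.4 CPM, with no overlap and a log2 difference of -0.28 ± 0.07 (adjusted p = 0.00627) that kept its call without any 1 library. Psmb4, a beta-ring subunit, was lower by 0.17 (-0.17 ± 0.06, adjusted p = 0.048), a call lost without any 1 of the 6 libraries. Psma8 was higher, at 1.94, 2.15 and 1.89 CPM against 0.582, 1.25 and 1.10 CPM (1.02 ± 0.32, adjusted p = 0.045), a call kept, on leaving out 1 library, only without wild-type replicate 2. Outside the name rule, the interferon-response factor Irf1 was lower there (-0.33, edgeR adjusted p = 0.000283). So was Tap1, the neighbour of Psmb9 (-0.23, adjusted p = 0.0388), with overlapping libraries. Of 23 listed interferon-stimulated genes 9 were lower and 0 higher. Of 17 MHC class I processing genes 5 were lower and 0 higher. A link of these genes with Psmb9 was not tested. The comparisons of Gata3-floxed with wild-type cells run across the sex difference given above. Psmd10 is X-linked and was called in neither. Neutrophil markers also differed: 6 of 9 tested were higher in Gata3-floxed cells without cytokine and 5 of 9 with IL-33, with 0 lower. Of 2 tested stromal markers 2 were higher without cytokine and 0 with IL-33. The part of these markers was not tested.

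Genes outside the name rule that work with the proteasome were read from lists drawn up with earlier results of these data known. Of 22 partner genes tested, 9 rose and 3 fell with IL-33, and 13 rose and 3 fell with IL-4. The shares of all genes called higher and lower were 18.5% and 16.9% with IL-33 and 25.1% and 22.5% with IL-4, and the counts of this and the following lists are to be read against them. Pomp, the maturation factor that core assembly needs, rose by 0.23 ± 0.06 with IL-33 (edgeR adjusted p = 0.00255) and 0.24 ± 0.06 with IL-4 (adjusted p = 0.0013). Usp14, a deubiquitinase on the regulatory particle, rose by 0.24 and 0.73, and Zfand2a, a proteasome-binding stress protein, fell by 0.74 and 0.26. Of 16 listed transcription factors and their processing enzymes, 7 rose and 5 fell with IL-33, and 4 rose and 9 fell with IL-4. Nfe2l1, the factor that drives proteasome genes when proteasome activity is short, rose by 0.34 ± 0.04 (adjusted p = 1.32e-07) and 0.23 ± 0.04 (adjusted p = 1.63e-05). Ddi2, the protease that activates it, fell with IL-33 by 0.17, a call lost without wild-type no-cytokine replicates 1 or 3 or IL-33 replicate 1, and with IL-4 by 0.59. Nfe2l2 (NRF2), which binds antioxidant-response elements, fell with IL-4 by 0.23 and had -0.08 with IL-33 (-0.13 and called with upper-quartile scaling). A list of 8 genes held ubiquitin, the ubiquitin-like Isg15 and activating enzymes. Of these, 2 rose and 2 fell with IL-33, and 1 rose and 2 fell with IL-4, too few to set apart from the shares of all genes. The 2 that fell with IL-4 were Uba7 and Isg15, which is also counted among the interferon-stimulated genes below.

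Of 23 listed interferon-stimulated genes, 2 rose and 2 fell with IL-33, while 1 rose and 19 fell with IL-4, with a median log2 change of -1.57. Irf1, an interferon-response factor known to act on Psmb9 and Tap1, rose by 0.53 ± 0.05 with IL-33 (edgeR adjusted p = 6.18e-08) and 0.38 ± 0.05 with IL-4 (adjusted p = 4.37e-06). Nlrc5, the MHC class I transactivator, had 0.18 ± 0.12 with IL-33, called only without wild-type no-cytokine replicate 1 (0.33, adjusted p = 0.0469), and fell with IL-4 by 0.49. Of 17 MHC class I processing genes, 5 rose and 3 fell with IL-33, and 4 rose and 6 fell with IL-4. Tap1, the neighbour of Psmb9, had 0.02 ± 0.07 with IL-33 and fell with IL-4 by 0.49 (-0.49 ± 0.07, adjusted p = 5.85e-06), from 114 to 81.3 CPM. B2m, the MHC class I light chain, had 0.08 and 0.06 and was not called. Calr, an endoplasmic reticulum chaperone of class I assembly, rose by 0.60 and 0.98. With IL-4, Psmb10 rose while Nlrc5 and Tap1 fell, and Psmb8 and Psmb9 were not called.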

How the data were processed

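The authors deposited 1 table of read counts per gene for 21 libraries; per the submitters' processing notes, HISAT2 2.0.5, HTSeq 0.6.1, DESeq2 1.22.2 and GRCm38 were used. The annotation and strandedness were not given in the sources used here. Counts were analysed with edgeR 4.0.16 (R 4.3.3), checked on simulated data: filterByExpr over 7 groups (14473 of 47069 genes, at least 99.97% of counts), TMM scaling, 1 quasi-likelihood fit of all libraries, and Benjamini-Hochberg adjustment over all genes tested, called under 0.05. The replicate number is the last digit of each sample title. The common dispersion was 0.00740, with 14 residual degrees of freedom. The 10 comparisons were tested together, and those with the same untreated group share its libraries. CPM per kb used GENCODE M21 exon bases.

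The members and lists were chosen with earlier results of these data known. Named with values were the 5 inducible genes, Psmb5, Psmb6, Psmb7, up to 4 called genes with the largest change in each direction, called changes of at least 1.5-fold without overlap, and a fixed set of related genes, 1 of which is not reported here. Other members were named after their values were seen, to show each class. Alternatives were RLE and upper-quartile scaling, no filter, DESeq2 1.42.0, limma-voom, only the groups compared, a replicate block and each library left out. Shared sequence was found by exact 50-base windows. Proteins were not used here.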

Additional observations from a re-analysis of the deposited data

Results flagged for a closer look

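The response of 18 genes to IL-33 differed between ST2-/- and wild-type cells by an interaction test (edgeR, adjusted p under 0.05), each with a smaller log2 change in ST2-/- cells. The inducible activator Psme2 differed by -0.87, or by -0.35 with its counts merged with those of Psme2b. The assembly chaperones Psmd10 and Psmd5 differed by -0.62 and -0.35. In the alpha ring the differences were -0.35 for Psma1, -0.22 for Psma2, -0.50 for Psma5, -0.46 for Psma6 and -0.36 for Psma7. In the beta ring they were -0.33 for Psmb2, -0.23 for Psmb4, -0.36 for Psmb5 and -0.31 for Psmb6. Among the ATPases they were -0.30 for Psmc1, -0.25 for Psmc5 and -0.36 for Psmc6, and among the non-ATPases -0.23 for Psmd12 and -0.39 for Psmd14. The activator Psme4 differed by -0.27.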

How the results depend on the processing

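Of the 31 genes called with IL-33 in wild-type cells, 17 were called under every alternative, as were 32 of 37 with IL-4, 14 of 19 between the cytokines, 15 of 27 in Gata3-floxed cells and 11 of 18 in the ST2-/- interaction. With upper-quartile scaling 22 genes (21 higher and 1, Psmd8, lower) were called with IL-33. Leaving out 1 library gave 18 to 31 calls with IL-33, 34 to 37 with IL-4, 14 to 20 between the cytokines, 19 to 29 in Gata3-floxed cells, 12 to 20 in the ST2-/- interaction, 0 to 1 between untreated Gata3-floxed and wild-type cells and 1 to 3 between them under IL-33 (1 without wild-type or Gata3-floxed IL-33 replicate 1). With no filter 2 genes (Psme2 lower, Psme2b higher) were called for IL-33 in ST2-/- cells. DESeq2 called 5 genes between Gata3-floxed and wild-type cells under IL-33. The shares of all genes called under each alternative are not given here. Shifts in these counts therefore cannot be set apart from a general change in calls. The cause was not tested.

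By the rule used, the replicate numbers did not pair libraries: in 0 of 21 pairs of groups did every same-numbered pair correlate above 0.1 (-0.04 to 0.11). The rule cannot exclude a weaker link between same-numbered libraries, since such a link would not pass it. A replicate block gave 36 calls in place of 31 with IL-33, 30 in place of 27 in Gata3-floxed cells and 22 in place of 18 in the interaction. The shares of all genes called with the block are not given here, so these gains may not be particular to the proteasome genes. The genes gained included Psmb8 (adjusted p = 0.0496), Psmb9 (0.021) and Psme1 (0.0459) with IL-33, so that all 5 inducible genes were called there, Psmb8 (0.0401) in Gata3-floxed cells, and Psmb8 (0.0316), Psmb9 (0.0371) and Psmb10 (0.0284) in the interaction.

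Directions turned only for uncalled changes near 0. With upper-quartile scaling Tap1 had -0.0310 with IL-33 and Psme1 -0.0109 with IL-4. Leaving out 1 library gave -0.0475 to 0.0723 for Tap1 with IL-33, -0.0145 to 0.0744 for Psme1 and -0.00052 to 0.0875 for B2m with IL-4, -0.0914 to 0.0294 for Psmb10 and -0.0820 to 0.0191 for Psme1 with IL-33 in ST2-/- cells, and -0.131 to 0.00883 for Psmb9 in Gata3-floxed cells.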
